A study of Rattus norvegicus with 8 samples.

Results

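The leptomeninges, the pia and arachnoid membranes around the cord, are built by fibroblasts that form part of the barrier between the cerebrospinal fluid and the nervous tissue. In rodents these cells carry transporters for amino acids, sulfate and organic ions, and they make retinoic acid. Their identity is set by transcription factors of the mesenchyme. The genes described here are 10 genes of this kind, given as a list by name: the transporters Slc6a13, Slc13a4, Slc22a6, Slc22a2 and Slc47a1, the transcription factors Prrx2, Foxc1 and Foxc2, and the retinoic acid genes Aldh1a2 and Crabp2. Of the 10, 8 were matched by gene symbol to a probe set with a single symbol, 1 probe set each, among 14506 genes measured in all. Foxc1, a forkhead factor needed for meningeal development in the mouse, and the related forkhead factor Foxc2 had no matched probe set and have no values here.

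The arrays compared the ipsilateral dorsal lumbar cord of 4 HDACI-treated and 4 vehicle-treated adult male Wistar rats at day 14 after transection of the L5 spinal nerve, so all 8 animals were nerve injured. The groups are those of the sample titles and tissue descriptions. The treatment text of the records names MS-275 for all 8 samples, vehicle included, and does not separate them. MS-275, the HDACI, acts on class I histone deacetylases and was infused intrathecally from an osmotic pump at 30 nmol/d. The vehicle was dimethyl sulfoxide in saline. Each array measured bulk RNA of dissected tissue and not of sorted meningeal cells, so more cells of a type and more RNA per cell cannot be told apart.

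Signals are on the log2 scale, and levels of different genes are not comparable because each has its own probes. As a gauge of background, 1105 olfactory receptor genes, which the cord is not known to use, averaged 5.33, and 95% of them lay below 6.93. HDACI and vehicle arrays were compared with limma over all 14506 genes. Here a gene was called at an unadjusted p under 0.01, the more lenient of 2 levels in the study. The study took genes from that level into a network analysis and measured desmin and metallothioneins of the network by quantitative PCR. Adjusted p values (Benjamini-Hochberg) were taken here over the 14506 genes. None of these 14506 genes passed an adjusted p under 0.05 in limma, and 1124 had an unadjusted p under 0.05. The study, whose counts cover all probe sets, reported that a mitochondrial transfer RNA alone passed a corrected p under 0.05 in the cord.

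Prrx2 was the only gene of the 8 to be called, and it was higher with HDACI. Slc13a4 showed the largest measured difference but was not called, and 7 of the 8 genes had their highest signal on a single array, HDACI replicate 2. Among all genes, 0.607% were called higher and 0.855% lower. Of the 8 genes, 6 had a positive difference and 2 a negative one, and 42.1% of all genes had a positive one. The median of the 8 was 0.31 on the log2 scale, against -0.01 over all genes. Without HDACI replicate 2 the median was 0.07, against -0.01 over all genes, and none of the 8 was called. Of the 8 differences 5 were then positive, as were 41.5% of those of all genes. In that comparison 0.462% of all genes were called higher and 0.572% lower, and 1 of the 8 genes, again Prrx2, had an unadjusted p under 0.05 in limma.

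**Figure D1:**
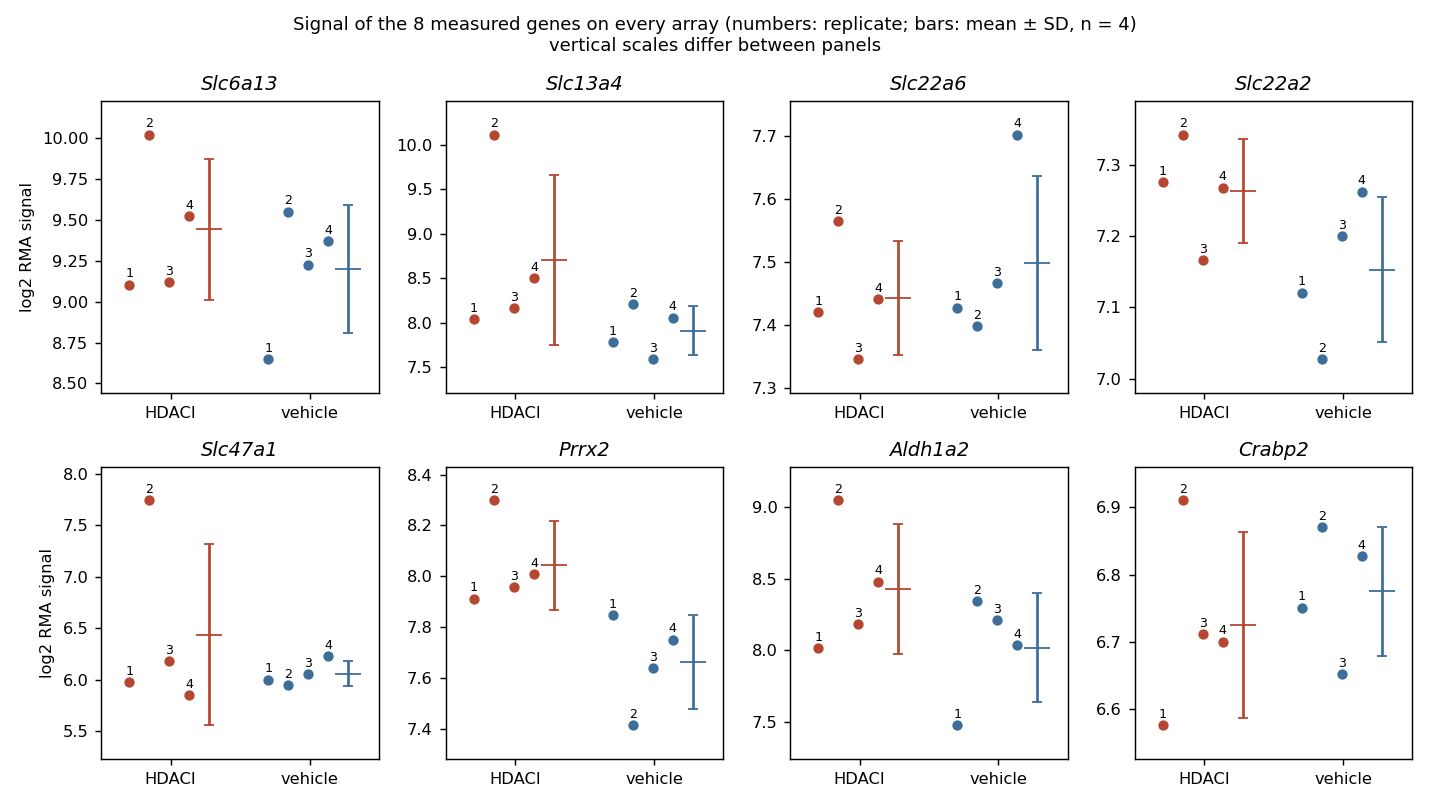
Log2 signal of the 8 measured genes on the 4 HDACI and 4 vehicle arrays, each point an array with its replicate number and each bar the mean ± SD. HDACI replicate 2 is the highest point in every panel except that of Slc22a6, and the groups are separate only for Prrx2.

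The proximal promoters of 3 genes are shown because Prrx2 is the gene that was called and Slc13a4 and Aldh1a2 had the largest differences of the 8. Each runs from 250 bases before to 50 bases after the annotated start in the RefSeq annotation of GRCr8, 5′ to 3′ on the strand of the gene. Capitals mark a GC box (GGGCGG) or a CCAAT box (CCAAT), read on both strands.
Prrx2 (chr3:34530081-34530380, plus strand): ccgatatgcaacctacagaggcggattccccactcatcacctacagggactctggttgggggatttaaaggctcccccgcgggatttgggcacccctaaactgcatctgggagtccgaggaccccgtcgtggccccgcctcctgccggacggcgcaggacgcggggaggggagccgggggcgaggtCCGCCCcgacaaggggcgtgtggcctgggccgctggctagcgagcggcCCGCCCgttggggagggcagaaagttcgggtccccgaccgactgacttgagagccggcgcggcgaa
Slc13a4 (chr4:64955937-64956236, minus strand): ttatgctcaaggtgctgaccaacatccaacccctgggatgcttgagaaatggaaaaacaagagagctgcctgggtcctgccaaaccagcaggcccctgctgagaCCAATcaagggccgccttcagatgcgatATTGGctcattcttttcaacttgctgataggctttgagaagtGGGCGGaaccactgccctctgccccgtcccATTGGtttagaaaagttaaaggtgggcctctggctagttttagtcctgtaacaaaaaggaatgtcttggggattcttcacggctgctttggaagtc
Aldh1a2 (chr8:80758391-80758690, plus strand): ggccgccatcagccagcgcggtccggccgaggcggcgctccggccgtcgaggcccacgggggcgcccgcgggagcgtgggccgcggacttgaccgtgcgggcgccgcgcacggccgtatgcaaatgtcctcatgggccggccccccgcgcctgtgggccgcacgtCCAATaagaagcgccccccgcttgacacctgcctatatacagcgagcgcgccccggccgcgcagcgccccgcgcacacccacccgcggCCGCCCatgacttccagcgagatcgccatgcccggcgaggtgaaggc

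The Prrx2 window was 69.3% G and C and held 30 CpG dinucleotides, more than 88.9% of 27457 rat promoters of the same length. That of Aldh1a2 was 76.0% G and C with 47 CpG dinucleotides, more than 98.7% of promoters. The Slc13a4 window held 5 CpG dinucleotides and was 50.7% G and C, against a median of 52.3% over all promoters. Promoters were at hand for 6 of the 10 genes, the other 3 being those of Slc22a2, Crabp2 and Foxc1. GC boxes occurred in 5 of these 6, all but Slc22a2, and in 34.9% of all promoters. CCAAT boxes occurred in 4 of the 6, not in Prrx2 or Crabp2, and in 37.7% of all promoters. A TATA box (TATAAA) occurred only in Crabp2 among the 6, and in 14.3% of all promoters. A forkhead motif (GTAAACA), a homeobox motif (TAATTA), a nuclear receptor motif (AGGTCA) and an E-box (CACGTG) were found in none of the 6 windows, and in 3.76%, 5.35%, 15.7% and 6.65% of all promoters. These motifs do not overlap with each other in the 6 windows.

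Slc13a4 encodes a sodium-dependent sulfate cotransporter. Its signals were 8.04, 10.11, 8.16 and 8.50 on HDACI arrays 1 to 4, against 7.79, 8.21, 7.59 and 8.06 on vehicle arrays 1 to 4. HDACI replicate 2 stood 1.61 above the next highest array, whereas the other 7 arrays spanned 0.91. HDACI averaged 8.71 ± 0.96 and vehicle 7.91 ± 0.28 (SD, n = 4 each), a difference of 0.79 with a 95% confidence interval of -0.11 to 1.70 (limma, unadjusted p = 0.0779, adjusted p = 0.672). The exact two-sided permutation p was 0.143. Without HDACI replicate 2 the difference was 0.32 (interval -0.04 to 0.69; limma, unadjusted p = 0.0738, adjusted p = 0.780), with HDACI replicate 1 below vehicle replicates 2 and 4.

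Slc47a1 encodes the proton-coupled exporter of organic cations known as MATE1. It had signals of 5.98, 7.74, 6.18 and 5.86 with HDACI and of 6.002, 5.95, 6.06 and 6.23 with vehicle. HDACI replicate 2 was the only array above the 95th percentile of the olfactory receptors, so the level on the other 7 arrays is not shown to lie above background. The difference of 0.38 (95% interval -0.42 to 1.18; limma, unadjusted p = 0.314, adjusted p = 0.835) rested on that array, and without it the difference was -0.05 (interval -0.26 to 0.15; limma, unadjusted p = 0.566, adjusted p = 0.953).

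Slc6a13 encodes GAT-2, a sodium-coupled transporter of GABA and taurine. Its signals were 9.11, 10.02, 9.12 and 9.53 with HDACI, against 8.65, 9.55, 9.23 and 9.37 with vehicle. The groups overlapped on 6 arrays, with HDACI replicate 2 above and vehicle replicate 1 below all others. HDACI averaged 9.44 ± 0.43 and vehicle 9.20 ± 0.39 (SD, n = 4 each), a difference of 0.24 (95% interval -0.29 to 0.78; limma, unadjusted p = 0.326, adjusted p = 0.840). It was 0.05 without HDACI replicate 2 (interval -0.41 to 0.52; limma, unadjusted p = 0.806, adjusted p = 0.983).

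Slc22a2 and Slc22a6, transporters of organic cations (OCT2) and organic anions (OAT1), varied least with Crabp2. Slc22a2 had 7.28, 7.34, 7.17 and 7.27 with HDACI and 7.12, 7.03, 7.20 and 7.26 with vehicle, a difference of 0.11 (95% interval -0.03 to 0.25; limma, unadjusted p = 0.0993, adjusted p = 0.694). Slc22a6 had 7.42, 7.56, 7.35 and 7.44 with HDACI and 7.43, 7.40, 7.47 and 7.70 with vehicle, a difference of -0.06 (interval -0.22 to 0.11; limma, unadjusted p = 0.475, adjusted p = 0.893). Slc22a6 was the only one of the 8 genes with its highest signal on a vehicle array, replicate 4, without which its difference was 0.01. The groups overlapped for both genes.

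Prrx2 encodes a paired-class homeobox factor of mesenchymal cells. Its signals were 7.91, 8.30, 7.96 and 8.01 with HDACI, against 7.85, 7.41, 7.64 and 7.75 with vehicle. The groups did not overlap, all 4 HDACI signals being the higher, as for 1.42% of all genes in that direction, and an exact two-sided permutation test gave p = 0.0286, the lowest value possible with 4 and 4 arrays. HDACI averaged 8.04 ± 0.17 and vehicle 7.66 ± 0.19 (SD, n = 4 each), a ratio of 1.30. The difference was 0.38 (standard error 0.11, 95% interval 0.14 to 0.62; limma, unadjusted p = 0.00591, adjusted p = 0.610). Prrx2 was among the genes known to pass this threshold on these arrays when the list was drawn up, so its call is not independent evidence. Without HDACI replicate 2 the groups still did not overlap, as for 2.70% of all genes in that direction. The difference was then 0.30 (interval 0.08 to 0.51) and no longer called (limma, unadjusted p = 0.0132, adjusted p = 0.780; exact permutation p = 0.0571, the lowest value possible with 3 and 4 arrays). The call was also lost without HDACI replicate 4 (unadjusted p = 0.0121 from limma), vehicle replicate 2 (0.0137) or vehicle replicate 3 (0.0150), with differences from 0.30 to 0.44 across all single arrays left out. With all arrays and no moderation of the variance it was lost too (unadjusted p = 0.0243 from the linear model of limma).

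Aldh1a2 encodes the retinaldehyde dehydrogenase that makes retinoic acid, and it marks the meninges in the mouse. It had 8.01, 9.05, 8.18 and 8.48 with HDACI and 7.48, 8.35, 8.21 and 8.04 with vehicle. HDACI replicate 2 was highest and vehicle replicate 1 lowest, the same ends as for Slc6a13. The difference was 0.41 (95% interval -0.13 to 0.95; limma, unadjusted p = 0.118, adjusted p = 0.711), and 0.21 without HDACI replicate 2 (interval -0.25 to 0.66; limma, unadjusted p = 0.328, adjusted p = 0.909). Crabp2, a binding protein that carries retinoic acid to its nuclear receptors, had 6.58, 6.91, 6.71 and 6.70 with HDACI and 6.75, 6.87, 6.65 and 6.83 with vehicle. All 8 Crabp2 signals lay below the 95th percentile of the olfactory receptors and are not shown to lie above background. Its difference was -0.05 (interval -0.22 to 0.12; limma, unadjusted p = 0.518, adjusted p = 0.906).

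**Figure D2:**
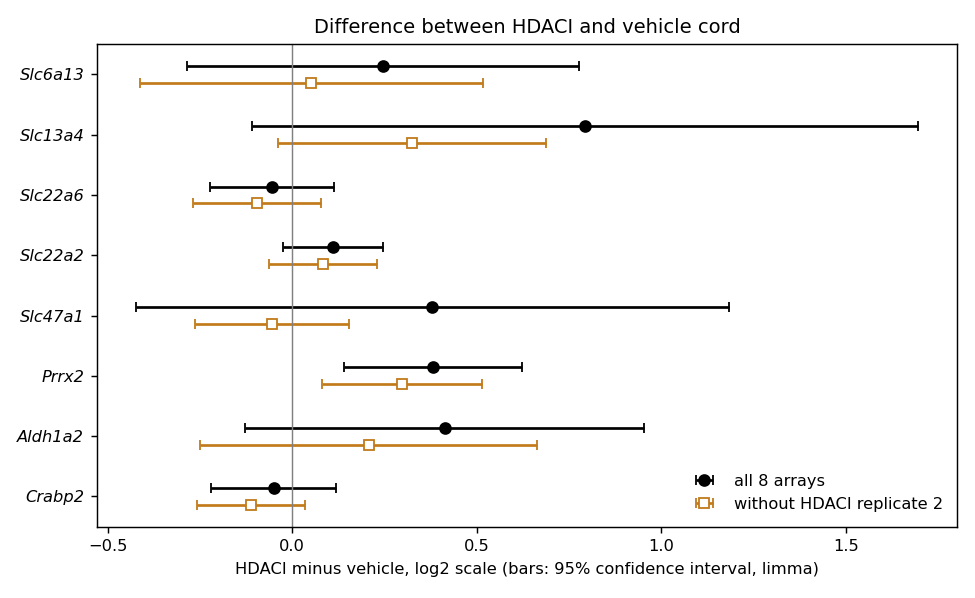
HDACI minus vehicle difference of each gene on the log2 scale with its 95% confidence interval from limma, for all 8 arrays (filled circles) and without HDACI replicate 2 (open squares). The interval of Prrx2 lies above 0 in both, and the differences of Slc13a4 and Slc47a1 move most, to 0.32 and -0.05.

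HDACI replicate 2 was the highest of the 8 arrays for 7 of the 8 genes and for 16.1% of all genes. Over the mean of the other 3 HDACI arrays it was 3.68-fold higher for Slc13a4, 1.77-fold for Aldh1a2, 1.71-fold for Slc6a13 and 1.27-fold for Prrx2. These excesses stood at the 99.9th, 99.4th, 99.3rd and 96.4th percentiles of all genes, and that of Slc22a2 (1.08-fold) at the 79.1st. No fold is given for Slc47a1, whose other 3 HDACI signals are not shown to lie above background. The mean signal of the 8 genes was 8.38 on HDACI replicate 2. It ran from 7.54 to 7.72 over HDACI replicates 1, 3 and 4 and from 7.38 to 7.66 over vehicle, 2 ranges that overlap.

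Several lists of cell markers also had their highest mean on this array. A list of 23 measured leptomeningeal fibroblast markers held collagens and secreted proteins, but also a gap junction protein (Gjb2) and a transporter (Slco2a1). None of the 8 genes was among these markers, and the list averaged 9.67 on HDACI replicate 2. HDACI replicates 1, 3 and 4 gave 8.79 to 9.09 and vehicle 8.81 to 9.15, and 18 of the 23 markers were highest on HDACI replicate 2. The list of 7 markers of Schwann cells and nerve roots averaged 9.80 on HDACI replicate 2, between 8.22 and 9.07 on the remaining HDACI arrays, and between 8.21 and 9.66 in vehicle. The means of 9 endothelial, 10 mural and 7 border macrophage markers were also highest on HDACI replicate 2, as were those of 8 choroid plexus and 5 blood markers. So was the mean of 6 oligodendrocyte markers, cells of the cord tissue itself, at 12.56, with 12.54 on the next array, vehicle replicate 1. The mean of 9 neuron markers was lowest there, at 11.38, with 11.57 to 11.66 for HDACI replicates 1, 3 and 4 and 11.56 to 11.63 for vehicle. That of 5 ependymal markers was also lowest there, at 7.11, with 7.21 to 7.54 for HDACI replicates 1, 3 and 4 and 7.25 to 7.51 for vehicle. The part of these marker levels in the values of the 8 genes was not tested.

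**Figure D3:**
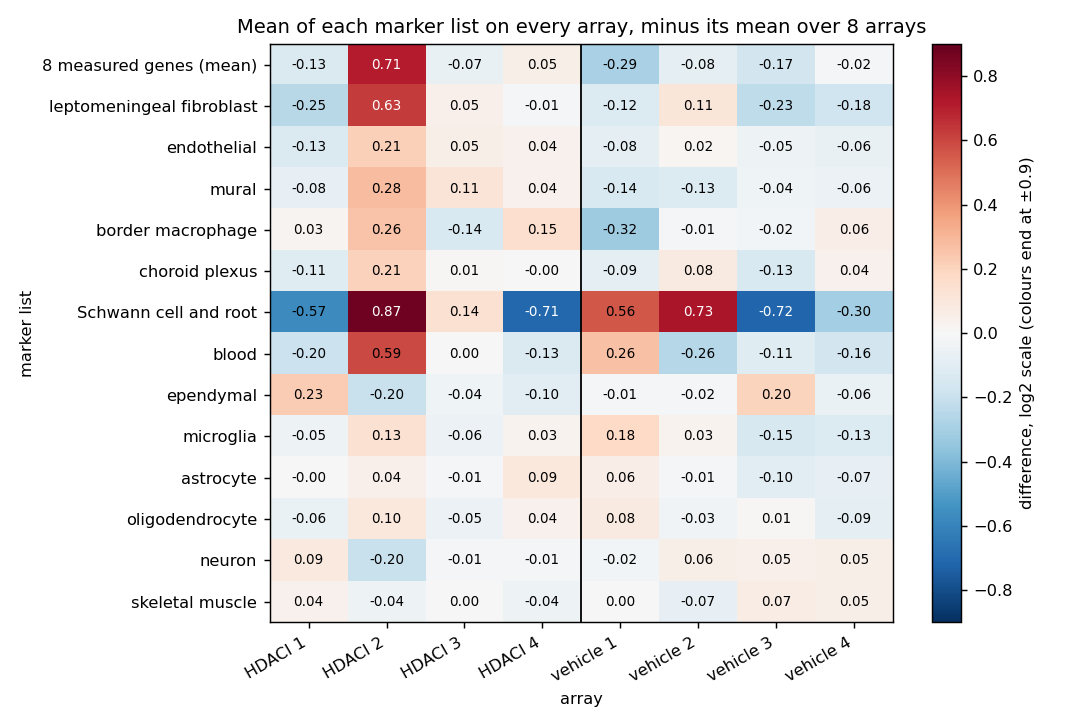
Mean log2 signal of the 8 measured genes and of 13 marker lists on each array, minus the same mean over all 8 arrays. HDACI replicate 2 stands 0.71 above the mean for the 8 genes, 0.63 for leptomeningeal fibroblast markers and 0.87 for Schwann cell and root markers. It stands at -0.20 for neuron markers and for ependymal markers.

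Of the 23 leptomeningeal fibroblast markers, 19 had a positive difference, with a list median of 0.19, against 42.1% and -0.01 over all genes. In the list 3 were called higher and none lower, against 0.607% and 0.855% of all genes. The 3 were the gap junction protein Gjb2 (0.52, standard error 0.12; limma, unadjusted p = 0.00174, adjusted p = 0.610), the prostaglandin transporter Slco2a1 (0.89; unadjusted p = 0.00249) and the matrix proteoglycan Bgn (0.66; unadjusted p = 0.00404). Each showed no overlap between the groups, as for 1.42% of all genes in that direction. Without HDACI replicate 2 the median was 0.04 and 14 of the 23 were positive, against 41.5% of all genes. Gjb2 (0.42), Slco2a1 (0.74) and Bgn (0.49) were still called, as were 0.462% of all genes in that direction. Prrx2 was likewise separate between the groups, and so were the mural marker Des and the choroid plexus marker Kl. The groups of Slc13a4, Slc47a1, Slc6a13 and Aldh1a2 overlapped with or without HDACI replicate 2. The lists were drawn up with results of these arrays known, those of Slco2a1 and Bgn included.

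Other transcription factors of the mesenchyme and of the meninges were not called in either direction in limma. Of the 22 measured, 2 had an unadjusted p under 0.05, as had 1124 of all 14506 genes. A positive difference was seen in 17, against 42.1% of all genes. The list median was 0.10, and 0.08 without HDACI replicate 2, against -0.01 over all genes in both comparisons. Those with the smallest p were the zinc finger factor Zic2 (0.33; limma, unadjusted p = 0.0219), the basic helix-loop-helix factor Twist2 (0.17; unadjusted p = 0.0317) and Snai2, a repressor of epithelial genes (0.23; unadjusted p = 0.0524).

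In the retinoic acid pathway 1 of 19 further genes was called higher and none lower, against 0.607% and 0.855% of all genes, with a list median of 0.02. This was Cyp26b1, which degrades retinoic acid, with signals averaging 7.52 ± 0.08 with HDACI and 7.24 ± 0.16 with vehicle (SD, n = 4 each). Its difference was 0.28 (standard error 0.08; limma, unadjusted p = 0.00533, adjusted p = 0.610) with overlapping groups, and 0.26 without HDACI replicate 2 (unadjusted p = 0.0163, no longer called). Lrat, which esterifies retinol, had -0.12 (limma, unadjusted p = 0.0248) and the retinoic acid receptor Rara 0.15 (unadjusted p = 0.0523).

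Transporters related to the 5 above were not called in limma, and none had an unadjusted p under 0.05. Of 17 organic ion transporters 12 had a positive difference, with a median of 0.01, against 42.1% and -0.01 over all genes. Slc22a23, an orphan member of the family of Slc22a2 and Slc22a6, had -0.08 (limma, unadjusted p = 0.0663), Abcc9, counted in this list although it encodes SUR2, a regulatory subunit of potassium channels, -0.09 (unadjusted p = 0.128) and the drug exporter Abcc4 0.10 (unadjusted p = 0.129). Of 10 relatives of Slc6a13 and Slc13a4, 4 had a positive difference, with a median of -0.01. The proline transporter Slc6a20a had 0.45 (limma, unadjusted p = 0.0504), the dicarboxylate transporter Slc13a3 0.19 (unadjusted p = 0.116) and the taurine transporter Slc6a6 0.09 (unadjusted p = 0.165). All 3 of these were highest on HDACI replicate 2, as Slc6a13 and Slc13a4 were, but they are the 3 with the smallest p. Of all 10 relatives 4 were highest there. The median excess of that array over the mean of the other HDACI arrays was -0.02 for the 10.

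Among markers of other cells, mural cells gave 1 called of 10, against 0.607% of all genes called higher. This was desmin (Des, an intermediate filament of muscle cells), at 0.67 (standard error 0.11; limma, unadjusted p = 1.32e-04, adjusted p = 0.610). Des showed no overlap between the groups and stayed called without HDACI replicate 2 (0.60; limma, unadjusted p = 3.06e-04). Border macrophages gave 1 of 7, the coagulation factor subunit F13a1, at 0.54 (limma, unadjusted p = 0.00557), and 0.42 without HDACI replicate 2, where it was no longer called (unadjusted p = 0.0131). The choroid plexus list, whose tissue expresses some of the same transporters, gave 1 of 8, the klotho gene Kl, at 0.20 (limma, unadjusted p = 0.00275). Kl also showed no overlap and stayed called without HDACI replicate 2 (0.22; limma, unadjusted p = 0.00238). The choroid plexus list as a whole did not share this difference. Of its 8 genes 4 had a positive difference, with or without HDACI replicate 2, and the list median was 9.9e-05. Lists of endothelial cells, Schwann cells, ependyma, astrocytes, oligodendrocytes, microglia, neurons, skeletal muscle and blood had none called in limma, and 1 of their genes had an unadjusted p under 0.05. It was Nefl, a neurofilament subunit, at -0.12 (limma, unadjusted p = 0.0466, adjusted p = 0.640).

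How the 8 genes varied together was described from the deviations of each array from its group mean, so that the difference between HDACI and vehicle was removed. Over 8 arrays, all 28 pairs of the 8 genes had a Pearson r above 0, with a median of 0.57. Without HDACI replicate 2, 18 of the 28 were above 0, with a median of 0.15, so the positive relations were fewer and weaker once that array was left out. The arrays share tissue dissection and normalization, and no test was made.

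In 3 pairs r stayed above 0.8 without that array. Aldh1a2 and Slc6a13 had an r of 0.97 over 8 arrays and of 0.94 over the 7 others, with vehicle replicate 1 lowest in both. Slc22a2 and Slc22a6 had 0.88 and 0.85, and Slc13a4 and Crabp2 0.90 and 0.88, although Crabp2 lay near background. The Slc22a2 signals, from 7.03 to 7.34, were also not far above the 95th percentile of the olfactory receptors (6.93). For Slc13a4 and Slc47a1 the values were 0.90 over 8 arrays and -0.26 over 7, the array at the top being HDACI replicate 2. Prrx2 had 0.10 with Slc6a13 over 8 arrays and -0.62 over 7, and 0.11 and -0.66 with Aldh1a2.

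**Figure D4:**
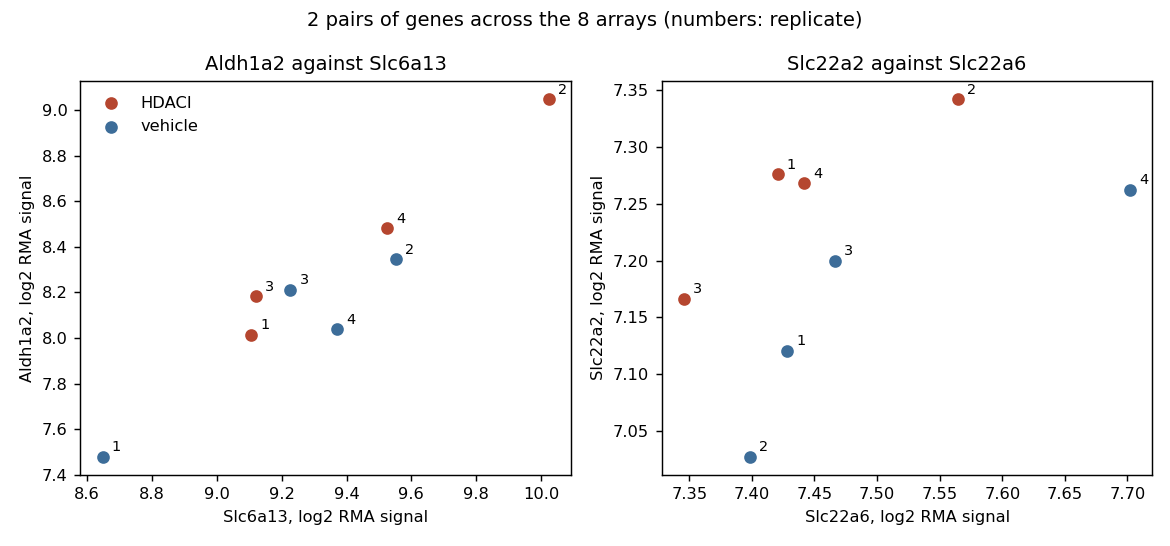
Log2 signal of Aldh1a2 against Slc6a13 (left) and of Slc22a2 against Slc22a6 (right), each point an array with its replicate number, HDACI in red and vehicle in blue. In the left panel HDACI replicate 2 and vehicle replicate 1 form the ends and the other 6 arrays lie in between.

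The genes most like the mean deviation of the 8 genes, of 14498 others, were Aoc3, an amine oxidase of vascular smooth muscle (r = 0.99 over 8 arrays), and Nupr1, a stress-responsive nuclear protein (0.98). Sema3d, a secreted semaphorin, the matricellular protein Ccn3, fibronectin (Fn1), the transcriptional coactivator Eya2, annexin A1 (Anxa1), Mpzl2, osteoglycin (Ogn) and the growth factor binding protein Igfbp3 followed, with r from 0.97 to 0.96. Ogn is 1 of the leptomeningeal fibroblast markers. None of the 10 was called with all arrays, the smallest unadjusted p being that of Eya2 (0.26; limma, unadjusted p = 0.0324, adjusted p = 0.628). Fn1 had 10.13, 11.22, 10.05 and 10.11 with HDACI and 9.74, 9.94, 9.90 and 9.97 with vehicle, a difference of 0.49 (limma, unadjusted p = 0.0628) and of 0.21 without HDACI replicate 2 (unadjusted p = 0.0101). Without HDACI replicate 2, 1 of the 10 was called, Anxa1, an inhibitor of inflammation (0.20; limma, unadjusted p = 0.00941, adjusted p = 0.780). In that comparison none of the 10 remained among the 10 most alike, and Aoc3 stood 39th with an r of 0.93.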

How the data were processed

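RNA of 8 cord samples, 4 HDACI and 4 vehicle by their titles and tissue descriptions, was hybridized to Affymetrix Rat Gene arrays. The deposited table holds log2 signals. To make it the authors used RMA from oligo (version not given in the sources used here), which subtracts background, equalises the distributions of the arrays and gives 1 value per probe set. Quantile normalization hides a change shared by most genes. No scan dates were used, so batches were not tested.

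Of 29214 probe sets, 15310 had 1 symbol in the platform annotation, updated by Entrez number through RefSeq (GRCr8), and were averaged to 14506 genes. No gene was filtered out. HDACI and vehicle were compared by limma 3.58.1 (lmFit, then eBayes; R 4.3.3), without a block, with Benjamini-Hochberg adjustment, and with exact two-sided permutation tests over arrays (scipy 1.17.1). The number of arrays limits the precision. The scripts were tested on simulated data.

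The members and lists were chosen with earlier results of these data known. The rule for named genes took all members, the 3 genes with the smallest p in each list and the 10 genes most like the members. Of the lists of cell markers the text names only those with an unadjusted p under 0.01, and Nefl. Alternatives were other eBayes settings, filters on dim genes, 2 normalizations, the highest probe set per gene, a fit on probe sets, array weights, the replicate number as a block and leaving out each array. List counts and likeness without HDACI replicate 2 were added after seeing the data. Protein comparisons were not made.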

Additional observations from a re-analysis of the deposited data

Results flagged for a closer look

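Of 42 groups of 4 arrays tested, for the 8 genes and 13 marker lists, 1 held an array far from the others. It was the mean of the neuron markers among vehicle arrays, where replicate 1 read 11.56 and the other 3 each read 11.63. Chance flags about 1 in 20 groups. Slc47a1 with HDACI came close to this limit, with a gap of 0.827 of the range between HDACI replicate 2 (7.74) and its nearest neighbour, just under the limit, and Slc13a4 had 0.779. Among all genes, 1.02% had HDACI replicate 2 as such a high outlier.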

How the results depend on the processing

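The 8 genes kept the sign of their difference in every alternative, except that Slc47a1 was at -0.055 without HDACI replicate 2 and Slc22a6 at 0.012 without vehicle replicate 4. With each array left out in turn, Slc47a1 ran from -0.055 to 0.57 and Slc22a6 from -0.096 to 0.012. The count of called genes, 1 in the fit reported, was 0 without variance moderation, where Prrx2 had an unadjusted p of 0.0243, and 0 when only genes at or above the median signal entered, where Slc6a13 alone of the 8 was left and 0 were separate between the groups. Leaving out each array in turn, the count called ran from 0 to 1, that of genes without overlap from 1 to 2 (Slc22a2 beside Prrx2 without HDACI replicate 3) and the median difference from 0.068 to 0.39. Over all genes, 212 were called, and 113 without HDACI replicate 4. None of the 8 passed an adjusted p under 0.05 from limma in any alternative, where the lowest was 0.481 for Prrx2.

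Whether the replicate numbers pair the arrays was not settled. Deviations from the group means correlated at -0.27, 0.36, 0.04 and 0.06 for numbers 1 to 4. Not every array correlated best with its own number, although the arrays numbered 2 did. Such correlations over all genes cannot decide if the samples were handled in pairs. With the replicate block 1 of the 8 was called, Aldh1a2 (unadjusted p = 0.0075 from limma), and Prrx2 was not (0.0170). The block also lowered the unadjusted p from limma for Slc13a4 (to 0.0147), Slc6a13 (to 0.0447), Slc47a1 and Crabp2. It raised that of Slc22a2 and Slc22a6. Medians with the block stayed at 0.31. With 4 arrays a group, the number of arrays limits what can be resolved.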
